A study of Rattus norvegicus with 12 samples.

Results

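The polyadenylated transcriptome of unstimulated rat hippocampal cultures was described from 3 control libraries, out of 12 samples of the series as given. The libraries were chosen by their label alone: polyA RNA of the control arm. Cells came from the hippocampus of Sprague-Dawley rats at embryonic day 18 and were grown as cultures enriched for neurons. The control arm received vehicle for 48 h from 18 days in vitro (DIV), and its RNA was taken at 20 DIV. The cultures carried no transgene that the labels name, and they are called cultures 3, 10 and 20 after the labels. The series describes its replicates as biological; the labels do not say whether each came from a separate dissection, so the spread reported is that between these 3 samples.

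Hippocampal neurons taken before birth form axons, dendrites and synapses in the dish over several weeks. Most neurons of the hippocampus are pyramidal or granule cells that release glutamate, and a smaller set of interneurons releases GABA. As neurons mature they switch from growth genes to genes of the synapse and exchange fetal receptor subunits for adult ones, so the relative levels of sister genes are often read as a sign of their stage.

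The table held 26404 genes, 20599 of them with a symbol. The genes together held 12840410, 13944778 and 12251454 fragments in cultures 3, 10 and 20. Levels between genes are given as FPKM, fragments scaled by transcript length and by library total, which the authors gave as 1 value for the group. That value was shared out to the 3 libraries in proportion to their scaled fragments, which are the fragments of a gene after division by the size factor of that library. A total of 11787 genes (44.6%) stood at FPKM 1 or more, with a median of 17.1 FPKM among them. FPKM reached 10 in 7603 genes and 100 in 1251, and 9292 genes had no fragment in any of the 3 libraries. A count of 0 in a library allows up to 3 fragments, a limit for counting error only.

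The most abundant named transcript was Nnat (neuronatin), a small membrane protein of the endoplasmic reticulum. Nnat stood at 3237, 2935 and 2974 FPKM in cultures 3, 10 and 20, a mean of 3049 ± 164 (SD, n = 3). The authors' table places it on chromosome 3 from 161553361 to 161555777, with the genome build not stated. Tmsb4x, thymosin beta 4, which binds actin monomers, followed at 2572, 2446 and 2423 FPKM. These 2 genes stood apart: every library of both lay above every library of the next, Ubb, a polyubiquitin gene at 1746 ± 84.7 FPKM. In all 21 genes with a symbol were at 1000 FPKM or more. Of 14 long noncoding RNA genes looked for, only 1 was found in the table by its symbol. The others, Meg3 and Malat1 among them, could therefore not enter this ranking by name.

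Several of the 30 highest genes, grouped here after their values were seen, encode or bind the cytoskeleton or belong to growth cones. Actb, beta actin, was at 1604, 1692 and 1908 FPKM and Cfl1, the actin-severing protein cofilin, at 1400, 1318 and 1341. Tuba1a, the alpha tubulin of young neurons, was at 1265, 1255 and 1437 FPKM. Stmn2, a stathmin that binds tubulin in growth cones, was among the steadiest, at 1149, 1150 and 1171 FPKM. Gap43, a membrane protein of growth cones, stood at 1076 ± 31.7 FPKM and Tmsb10 at 1156 ± 75.4. A further group serves calcium signalling and the synapse: Pcp4 (1310 FPKM) binds calmodulin, which Calm3 (921.5) encodes, and Snap25 (929.7) encodes a SNARE of vesicle fusion. Atp1b1, the beta subunit of the sodium pump, stood at 1224 FPKM. Genes of every cell's energy and protein turnover completed the top: the respiratory chain subunits Cox6a1 (1065 FPKM) and Cox8a (1009), the ATP synthase subunit Atp5b (1047), the ribosomal protein Rpl41 (1355) and the ubiquitin hydrolase Uchl1 (1097), which is abundant in neurons. Mt3, the metallothionein of brain, stood at 927.4 FPKM.

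**Figure D1:**
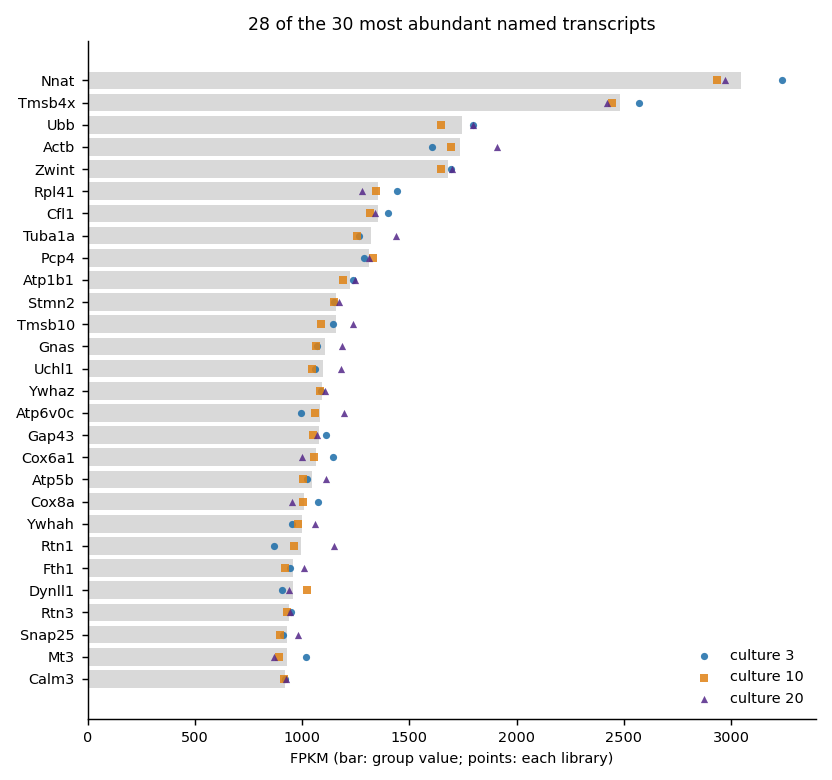
FPKM (linear axis from 0) of 28 of the 30 named genes with the highest values; bars are the group values of the authors' table and points the 3 control libraries. Nnat and Tmsb4x lie above the rest, and the points of a gene lie near the end of its bar, the widest relative spread among them being that of Rtn1 (870.1 to 1150 FPKM).

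Counted in fragments, which grow with transcript length, the order differed. Nnat had a mean of 38788 scaled fragments, followed by Zwint (34788), Rtn3 (33817) and Atp1b1 (32416). Long transcripts entered: Sptan1, the alpha spectrin of the membrane skeleton, was in place 7 by fragments and in place 318 by FPKM, and Map1b, a microtubule-associated protein of growing axons, in place 8 and place 595. Map1b had a 3' UTR of 4288 bases in the authors' table of control UTRs, while Ywhah, a 14-3-3 protein, had 62 bases. Over genes with a value there, the median 3' UTR was 576 bases at FPKM 1 to 10 (2768 genes), 799 at 10 to 100 (5119 genes), 476 at 100 or more (1065 genes) and 400.5 among 24 of the 30 highest. Lengths listed as 0, such as that of Slc7a11, were kept and can lower these medians.

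No small set of the genes in the table dominated the fragments counted there. The 10 genes with most fragments held 2.64% ± 0.0389 of all fragments and the first 100 held 13.8% ± 0.277 (SD, n = 3); 1079 genes together held 50% of them. On the FPKM scale the first 10 features held 8.80% ± 1.28, but this rested on features with very short modelled lengths. One feature without a symbol had 23652 FPKM from a mean of only 74.1 scaled fragments. Without features whose fragments and FPKM imply a length under 100 bases, the first 10 held 3.12% ± 0.0509.

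The promoters of expressed genes were set beside those of genes listed near 0, as a description of their letters. Windows of 300 bases (250 before to 50 after the start of the RefSeq transcript, build GRCr8) were matched by symbol to 8430 of 11234 symbols at FPKM 1 or more and to 2914 of 5997 under FPKM 0.1. The median number of CG dinucleotides was 22 in the first set and 5 in the second, beside 7 over all 27457 promoters. GGGCGG, the letters of the GC box, on either strand was in 64.2% of the first set, 25.8% of the second and 34.9% of all. TATAAA on the strand of the gene was in 3.87%, 12.9% and 9.08%. TGACGTCA, the full cyclic AMP response element, which reads the same on both strands, was in 3.39%, 0.892% and 1.91%. These are shares of letters in a window and not of bound sites. Of the 30 highest genes 16 had a promoter in the table: 11 held GGGCGG and only Mt3 held TATAAA. The following 5 promoters, chosen after their values were seen, give examples, with these motifs in capitals (CCGCCC being GGGCGG on the other strand). Ywhah at 997.7 FPKM has 39 CG, 4 matches of the GC box and TGACGTCA at base -163, and lies at chr14:81930153-81930452 on the minus strand. Mt3 joins a GC box to TATAAA at base -31 from the start (chr19:10856031-10856330, minus strand). Slc17a7, the vesicular glutamate transporter, has 17 CG and 3 GC boxes (chr1:104785955-104786254, plus strand). Sst, the peptide somatostatin, has no GC box but also holds the cyclic AMP response element, at base 3 after the start used here (chr11:90461296-90461595, plus strand). Ins1, a pancreatic insulin gene listed at 0 in all 3 libraries, has 4 CG and a TATAAA at base -30 (chr1:261185869-261186168, plus strand).
Ywhah: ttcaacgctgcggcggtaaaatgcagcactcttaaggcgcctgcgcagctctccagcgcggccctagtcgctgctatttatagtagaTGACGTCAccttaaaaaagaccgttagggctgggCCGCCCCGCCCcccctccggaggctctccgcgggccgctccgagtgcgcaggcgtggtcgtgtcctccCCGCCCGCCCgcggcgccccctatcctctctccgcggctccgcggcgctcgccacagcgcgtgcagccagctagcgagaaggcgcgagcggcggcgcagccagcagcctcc
Mt3: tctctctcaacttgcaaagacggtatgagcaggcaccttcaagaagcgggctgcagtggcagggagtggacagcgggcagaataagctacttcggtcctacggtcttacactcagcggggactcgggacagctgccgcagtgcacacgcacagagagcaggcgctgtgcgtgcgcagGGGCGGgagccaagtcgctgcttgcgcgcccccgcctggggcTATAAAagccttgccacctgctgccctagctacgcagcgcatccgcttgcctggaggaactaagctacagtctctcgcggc
Slc17a7: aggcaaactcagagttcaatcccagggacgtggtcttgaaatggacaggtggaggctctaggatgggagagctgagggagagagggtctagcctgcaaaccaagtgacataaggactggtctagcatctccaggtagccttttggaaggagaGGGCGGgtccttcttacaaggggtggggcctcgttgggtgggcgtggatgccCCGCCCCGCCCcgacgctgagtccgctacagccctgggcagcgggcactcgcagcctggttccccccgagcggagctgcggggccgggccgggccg
Sst: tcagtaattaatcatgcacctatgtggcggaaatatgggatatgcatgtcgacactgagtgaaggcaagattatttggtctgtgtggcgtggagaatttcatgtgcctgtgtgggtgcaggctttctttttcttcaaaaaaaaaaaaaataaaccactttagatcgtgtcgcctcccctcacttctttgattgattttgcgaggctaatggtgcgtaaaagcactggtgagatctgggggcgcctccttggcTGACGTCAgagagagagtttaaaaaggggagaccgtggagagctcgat
Ins1: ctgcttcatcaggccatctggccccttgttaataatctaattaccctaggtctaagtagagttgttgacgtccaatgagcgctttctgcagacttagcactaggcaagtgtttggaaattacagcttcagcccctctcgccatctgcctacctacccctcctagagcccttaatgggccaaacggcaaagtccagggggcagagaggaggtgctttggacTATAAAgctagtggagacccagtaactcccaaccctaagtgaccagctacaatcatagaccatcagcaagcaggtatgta

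Marker genes of neurons were high and those of most other cell types were low or at 0. All 16 general neuronal markers reached FPKM 1, and their summed level was 5649, 5727 and 6218 FPKM in cultures 3, 10 and 20. Snap25 stood at 929.7 ± 45.4 FPKM, Map2 (a dendritic microtubule protein) at 261.4 ± 18.5 and Rbfox3, the nuclear protein NeuN, at 40.97 ± 3.05. In the same list Stmn2 was at 1157 and Uchl1 at 1097 FPKM. For scale, 44.6% of all genes reached FPKM 1. In bulk RNA, fewer cells of a type and less RNA per cell cannot be told apart, so these levels are not cell counts.

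**Figure D2:**
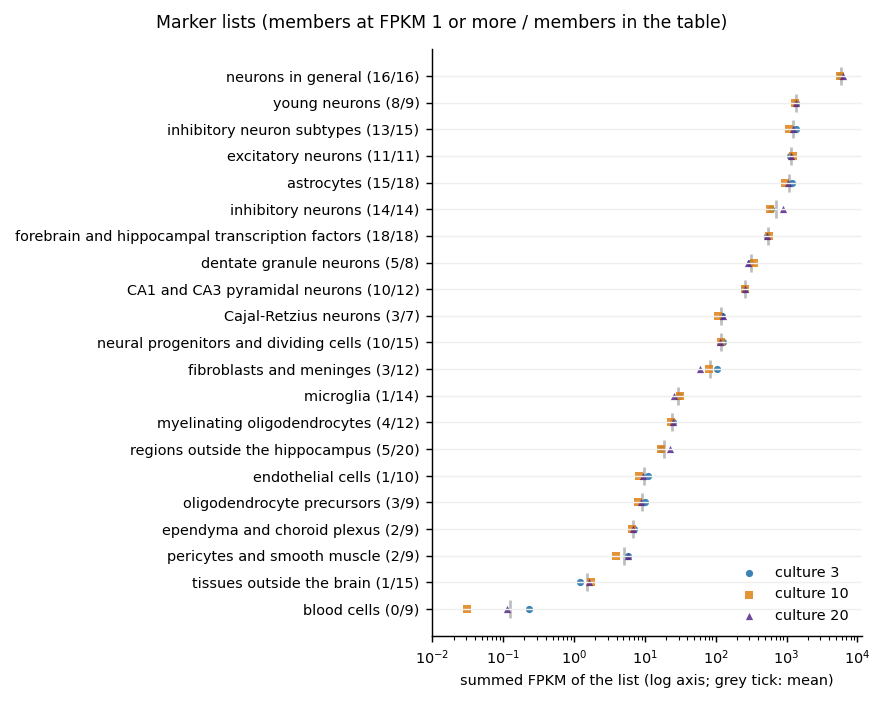
Summed FPKM of each marker list in each control library (log axis), with the number of members at FPKM 1 or more of those in the table beside each name. The general neuronal list sums to 5649 to 6218 FPKM, and lists of microglia, endothelium, blood and tissues outside the brain to 0.0308 to 30.9.

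Glutamatergic markers were all present, 11 of 11 at FPKM 1 or more, with a sum of 1172 ± 47.03 FPKM. Slc17a7 was at 368.1, 384.8 and 385.4 FPKM and Camk2a, the postsynaptic kinase of forebrain pyramidal cells, at 341.5, 386.0 and 407.5. Neurod6, a transcription factor of pyramidal cells, was at 218.6, 239.7 and 160.8 FPKM, lowest in culture 20. All 18 forebrain and hippocampal transcription factors reached FPKM 1, led by Lmo4 (114.7 FPKM), with Lhx2 at 45.70 and Zbtb20 at 3.47. The pyramidal list of CA1 and CA3 had 10 of 12 members at FPKM 1 or more: Wfs1 at 28.1 and Grik4 at 9.22 FPKM, with Meis2 (54.5) and Nptx1 (45.9) highest. Fibcd1, a gene with more than 1 identifier in the table, was listed at 0.00548. Dentate granule markers were uneven. Calb1, a calcium buffer of granule cells and some interneurons, was at 215.5, 264.8 and 225.5 FPKM, whereas Prox1, the transcription factor that defines granule cells, was at 1.02, 1.23 and 1.68 and Dsp at 0.0757.

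Inhibitory markers were present in full, 14 of 14, and were the neuronal list that varied most between cultures. Their sum was 602.9, 594.0 and 903.0 FPKM, 699.98 ± 175.9. Gad1 and Gad2, which make GABA, were at 163.1, 154.7 and 237.0 FPKM and at 163.6, 161.5 and 247.3. Slc32a1, which loads GABA into vesicles, was at 67.9, 66.9 and 98.6 FPKM. In each of these 3 genes cultures 3 and 10 lay close together and culture 20 lay above both. Of the 14 genes 13 were highest in culture 20, as were 14 of the 16 general neuronal markers, beside 40.5% of all genes at FPKM 1 or more. The ratio of Gad1 to Slc17a7 was 0.443, 0.402 and 0.615.

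Peptides, calcium buffers and other genes that mark interneuron classes did not follow that order as a list. Of 13 at FPKM 1 or more, 4 were highest in culture 20, beside 40.5% of all genes at that level. Sst was the highest of them at 709.5, 556.6 and 671.1 FPKM, Cck was at 215.1, 180.2 and 153.0, and Calb2 (calretinin) at 100.2 ± 8.96. The cannabinoid receptor Cnr1 was at 136.76 ± 10.97 FPKM. Pvalb, the buffer of fast-spiking interneurons, was near 0 at 0.263, 0.304 and 0.143 FPKM, and Vip was at 2.29 ± 0.140. Among 15 listed members, 13 reached FPKM 1. Chrm2, a gene with more than 1 identifier in the table, was listed at 0.

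Astrocyte markers formed the clearest group outside neurons. The list summed to 1200, 963.9 and 1051 FPKM, with 15 of 18 members at FPKM 1 or more. It was led by Sparcl1, a secreted matrix protein (198.3 FPKM), and Fabp7, a fatty-acid binding protein of radial glia (194.3). The defining markers were lower: Gfap, the astrocyte intermediate filament, was at 44.5, 23.9 and 34.3 FPKM, the water channel Aqp4 at 9.13, 5.35 and 6.92, and Aldh1l1 at 0.524, 0.242 and 0.507. All 3 were highest in culture 3 and lowest in culture 10. Snap25 exceeded Gfap by 20.5, 37.6 and 28.7 times. Some list members are made by neurons too, among them Sparcl1, Aldoc and Clu, so the sum is not one of astrocytes alone.

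Markers of oligodendrocytes and their precursors were near the floor. Of 9 precursor genes 3 reached FPKM 1, and the defining genes Pdgfra, Cspg4 and Olig2 were at 0.410, 0.0286 and 0.527 FPKM. Among 12 genes of myelinating cells, Cnp was at 11.4 and Mbp at 1.40 FPKM, with Mog at 0.462. Of 14 microglial genes only 1 reached FPKM 1, and it made up most of the list: the sum was 29.1 FPKM with it and 1.28 without it. Aif1, Cx3cr1, P2ry12 and Itgam had no fragment in any library, and Csf1r was at 0.0147 FPKM. Lyz2, a lysozyme of myeloid cells that was not on the list and was noticed among the variable genes, stood at 34.8 FPKM with 603, 498 and 269 scaled fragments.

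The vascular, blood and ventricular lists were low as well. Endothelial Cldn5, Pecam1 and Flt1 were at 0.103, 0.176 and 0.205 FPKM, and the glucose carrier Slc2a1 (8.80) alone of 10 reached FPKM 1. The 9 blood genes summed to 0.124 FPKM and none reached 1. Ttr, the main product of choroid plexus, was at 0.291 FPKM. The list of fibroblasts and meninges was mixed: the small proteoglycans Dcn (48.99 FPKM) and Lum (29.3) were well detected, while the fibrillar collagens Col1a1, Col1a2 and Col3a1 were at 0.0676, 0.0348 and 0.103. Lum fell into the group of widest spread, at 40.5, 31.3 and 16.0 FPKM.

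Of 15 genes of neural progenitors and dividing cells 10 (66.7%) reached FPKM 1, beside 44.6% of all genes, with a sum of 119.6 ± 7.30 FPKM. The defining genes of division, Mki67 and Top2a, were at 0.0354 and 0.231 FPKM, while Sox2, shared by progenitors and astrocytes, was at 8.45. Pcna, which also serves DNA repair, was the highest of that list at 61.8 FPKM. Of 9 genes of young neurons 8 reached FPKM 1 at 20 DIV, the one time measured: Tubb2b was at 629.1 ± 41.7 FPKM, Stmn1 at 589.2 ± 4.33 and Dcx (doublecortin) at 55.3, 55.3 and 53.8, with Sox11 at 5.58. Cajal-Retzius markers Tp73, Lhx5 and Lhx1 were at 0.265, 0.408 and 0.0938 FPKM, though Reln, which interneurons also make, was at 12.7.

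Markers of other brain regions were mostly low, with 5 of 20 at FPKM 1 or more. Th, Tph2 and Slc6a4 of monoamine neurons were at 0.930, 0.707 and 0.0572 FPKM, and Hoxa5, Hoxb5, Hoxc6, Pcp2 and Hcrt were at 0 in all libraries. Drd1, a dopamine receptor of striatal and some hippocampal cells, was the highest of this list at 4.55, 4.17 and 8.38 FPKM. Of the 5 members at FPKM 1 or more, 3 were highest in culture 20, beside 40.5% of all genes at that level. Further genes that are abundant in striatal projection neurons did not all share that order. Ppp1r1b (DARPP-32) had 422, 400 and 771 scaled fragments and Gnal 566, 669 and 1143. Both were picked from the most variable genes after their values were seen. Among peptide genes of such neurons, Penk and Pdyn were also highest in culture 20. Tac1 was highest in culture 3, at 61.9, 51.9 and 53.97 FPKM in cultures 3, 10 and 20. Of the 14 inhibitory markers 13 were highest in culture 20, and so were 14 of the 16 general neuronal markers. The part of cell makeup in these differences between cultures was not tested. Tissues outside the brain gave 1 of 15 genes at FPKM 1, Myh7 at 1.01.

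Within gene families, 1 member usually led. In 66 families the leading member held a median of 50.8% of the summed FPKM, and in 54 every library of the leader lay above every library of the next member. The share exceeded 50% in 34 families and 90% in 3, the store calcium pump Atp2a2 (99.95%), hexokinase Hk1 (99.4%) and Eno1 (95.0%). The share of Eno1 rests on a low listed value of Eno2, a gene with more than 1 identifier in the table, so it is uncertain. FPKM depends on the modelled transcript length: by fragments 14 families had another leader, for example Camk2b (11905) over Camk2a (6332), and those orders hold for FPKM only.

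Glutamate receptors had a clear order. Among AMPA receptor subunits, the fast receptors of excitatory synapses, Gria2, which makes them impermeable to calcium, was at 235.8, 234.1 and 219.0 FPKM. Gria1 was at 126.1, 139.6 and 150.5, below Gria2 in every library, and Gria3 (35.95 ± 1.67) and Gria4 (35.82 ± 4.45) overlapped. Of NMDA receptor genes the obligatory Grin1 was at 114.5 ± 9.50 FPKM, Grin2b at 17.6, 14.4 and 19.7 and Grin2a at 13.9, 12.4 and 14.4. Grin2b is the early partner and Grin2a the late one; the ratio of Grin2a to Grin2b was 0.790, 0.861 and 0.728, below 1 in all 3 cultures. Grin2c and Grin3b were at 0.0644 and 0.0348 FPKM. Grm5 (51.88 ± 2.44) and Grm7 (40.89 ± 0.602) led the metabotropic receptors.

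The genes of GABA-A alpha subunits were led by 2 that are prominent in hippocampus and in early life. Gabra5 was at 265.7, 290.4 and 252.5 FPKM and Gabra2 at 241.7, 238.9 and 232.2. Gabra4 was at 76.5 ± 5.92 FPKM and the cerebellar Gabra6 at 0.258. Among the genes of beta subunits Gabrb2 (59.2 ± 0.964 FPKM) and Gabrb1 (58.1 ± 4.43) overlapped. The chloride exporter Slc12a5 (KCC2), whose rise makes GABA inhibitory, was at 51.4, 50.96 and 64.5 FPKM and the importer Slc12a2 (NKCC1) at 13.5, 12.3 and 13.4, a ratio of 4.25 ± 0.523.

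**Figure D3:**
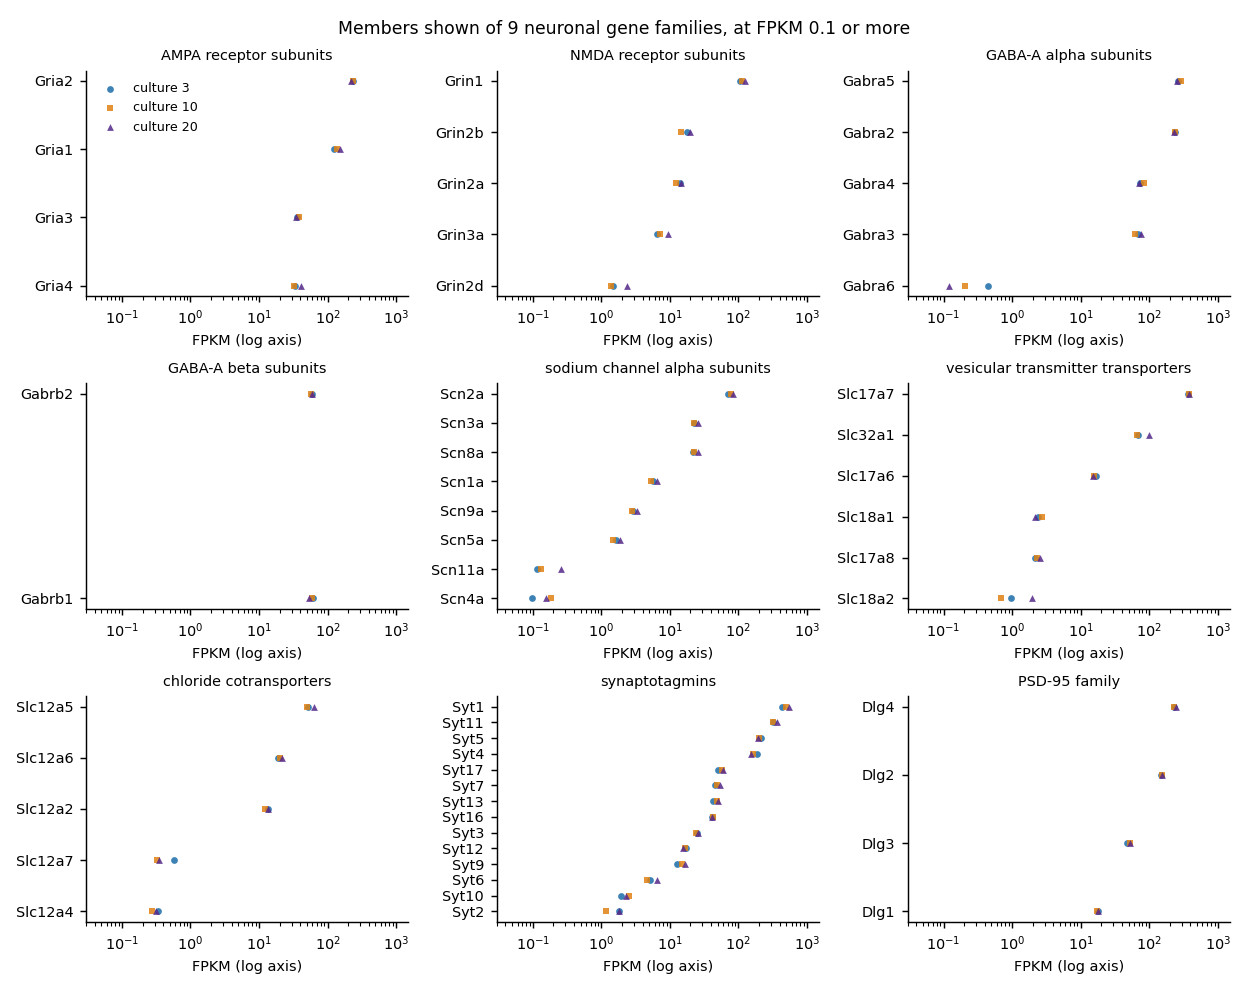
FPKM (log axis) of members listed at 0.1 or more in 9 families, one point per control library. The 3 libraries of a gene lie close together relative to the distances between most members, and pairs such as Gria3 and Gria4 or Scn3a and Scn8a overlap.

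Channel and vesicle genes showed the same kind of order. Scn2a, the early sodium channel of the axon initial segment, was at 71.3, 77.2 and 85.0 FPKM. The fetal Scn3a (23.64 ± 1.57) and the adult Scn8a (23.46 ± 2.07) overlapped, with a ratio of Scn8a to Scn3a of 0.991 ± 0.0367, and Scn1a, typical of interneurons, was at 5.91. Kcnq3, a subunit of the M current, was at 22.9 ± 2.35. Slc17a7 exceeded Slc17a6 by 23.997 ± 1.85 times. At the release site, Vamp2 stood at 569.5 ± 34.5 FPKM against Vamp1 at 86.45, Syt1, the fast calcium sensor, at 439.1, 497.1 and 555.3, Syp at 771.5 and Rab3a at 429.4. Syt2, its counterpart in hindbrain and some interneurons, was at 1.60.

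Among families of synaptic, RNA-binding and translation genes, some had a clear leader and others overlapped. Dlg4 (PSD-95) was at 236.0 ± 9.65 FPKM, Dlg2 at 154.0, Dlg3 at 50.5 and Dlg1 at 17.9, 4 levels that did not overlap. Shank1 (47.1) led Shank3 (30.4), and Nrxn2 (150.7) led Nrxn3 (90.8). Ptbp2, the neuronal splicing repressor, was at 86.1, 88.5 and 80.9 FPKM, and Ptbp1, its counterpart in dividing and glial cells, at 8.32, 8.22 and 10.8. Rbfox1 (46.6 ± 5.80), Rbfox3 (40.97 ± 3.05) and Rbfox2 (40.15 ± 0.771) stood at levels whose libraries overlapped in part. Eef1a1 exceeded its neuronal and muscle counterpart Eef1a2, with a ratio of Eef1a2 to Eef1a1 of 0.211 ± 0.0158.

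Some families cannot be resolved in this table, and some common genes are listed at very low values. Tubulins, actins, calmodulins and ribosomal proteins have near-identical copies, so their division among genes is uncertain. The authors' table places Tuba1a on chromosome X, while the RefSeq promoter table places it on chromosome 7. Genes that every cell uses were listed near 0: Rps6 at 0.0404 FPKM, Rps19 at 0.132 and Tpi1 at 0.431. Hspa8, the constitutive chaperone, was at 4.95 FPKM and the neuronal enolase Eno2 at only 15.9, and Slc2a3, the neuronal glucose carrier, was at 0.274. All 6 have more than 1 gene identifier in the table, as do the markers Fibcd1 and Chrm2. Low values were not confined to such genes. The ribosomal protein gene Rps4x, with 1 identifier, was at 7.16 FPKM, beside a median of 331.4 for its list. A low value in this table, with 1 identifier or several, therefore does not show that a gene was silent.

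Genes of protein synthesis and energy supply were listed at high levels. Of 53 cytosolic ribosomal protein genes 51 reached FPKM 1 with a median of 331.4 FPKM, and all 40 respiratory chain genes did, with a median of 273.7. The ribosomal sum was 20413, 18716 and 17563 FPKM, and 45 of the 51 genes were lowest in culture 20, beside 37.4% of all genes at FPKM 1 or more. All 18 cholesterol synthesis genes were expressed: Hmgcs1, which makes HMG-CoA, was at 651.4, 654.4 and 624.6 FPKM, Fdps at 506.2 ± 16.3 and Msmo1 at 372.1 ± 41.6. Of glycolytic genes Gapdh led at 853.4 ± 33.9 FPKM, followed by Aldoa (786.5) and Pgam1 (522.5).

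Neuropeptide and granin genes were broad, 23 of 24 at FPKM 1 or more. Besides Sst, Scg2 (422.7 ± 39.6 FPKM), Scg5 (333.0 ± 40.7) and Chgb (297.1 ± 27.8), proteins of dense-core vesicles, were high. Bdnf, a neurotrophin released by activity, was at 124.0, 95.4 and 105.5 FPKM, and Nmu was lowest at 0.760. Extracellular matrix genes were led by Sparcl1 and Sparc (58.0 ± 13.6 FPKM), and the perineuronal net proteoglycan Acan was at 3.85 ± 0.840.

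Genes listed as rapid response, many but not all of which neurons switch on soon after firing, were expressed in these vehicle-treated cultures. Of 22 genes 21 reached FPKM 1, with a sum of 816.1, 883.7 and 1058 FPKM. Fos was at 68.1, 90.5 and 125.0 FPKM, Egr1 at 68.0, 77.8 and 109.1, and Nptx2 at 87.7, 68.8 and 85.5. Fosb was at 4.645, 4.49 and 12.9 and Egr2 at 4.47, 5.56 and 10.7. Npas4, induced by calcium entry, was at 39.4, 59.1 and 45.6 FPKM, and Arc at 47.8, 53.02 and 54.7. Fos, Fosb, Egr1 and Egr2 were all highest in culture 20, as were 14 of 21, beside 40.5% of all genes at FPKM 1 or more; Jun (30.9 ± 0.872 FPKM) and Ier2 (18.1 ± 0.249) varied little. Of the 17 with a RefSeq promoter, 4 held TGACGTCA (23.5%), namely Jund, Ier2, Dusp1 and Btg2, beside 3.39% of promoters of genes at FPKM 1 or more and 1.91% of all.

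The 3 cultures were close to each other in nearly all genes. Among 9441 genes with a mean of 100 or more scaled fragments, the median coefficient of variation (CV) was 7.35%, and 6425 (68.1%) had a CV under 10%. The spread was close to counting error at low levels and above it at high levels. At 10000 or more fragments the median CV was 4.76% against 0.834% from counting, while at 10 to 30 fragments the figures were 23.99% and 23.9%. Cultures 3 and 10 differed by a median of 0.0893 on the log2 scale, cultures 10 and 20 by 0.132 and cultures 3 and 20 by 0.153. Culture 20 thus stood slightly apart from the other two.

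**Figure D4:**
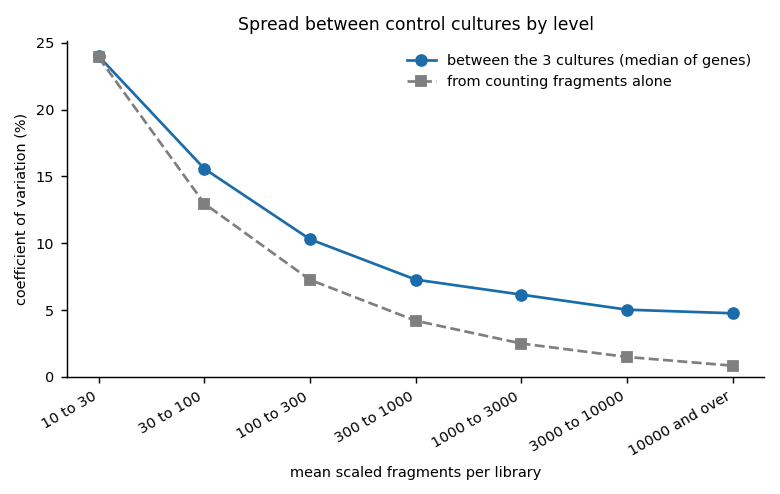
Median CV between the 3 control libraries (%) for genes grouped by mean scaled fragments, beside the CV that counting fragments alone would give. The lines meet at 10 to 30 fragments and separate above, to 4.76% and 0.834% at 10000 or more.

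Only 33 of the 9441 genes (0.35%) spanned 2-fold or more between libraries. Without culture 3, 10 or 20 the number was 13, 22 and 7. Culture 3 was highest in 16 of them, culture 10 in 4 and culture 20 in 13. Fam111a, a nuclear protease gene, stood far from the rest, with 20.4, 871 and 7.42 scaled fragments: nearly all came from culture 10. No other named gene was close to its span of 117-fold. Fosb (187, 181 and 518 scaled fragments), Egr2 (163, 202 and 388), Klf10 (731, 690 and 1423) and Sec23b (163, 153 and 337) were high in culture 20 alone. Among rapid response genes 2 of 21 with a mean of 100 or more spanned 2-fold, Fosb and Egr2.

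The opposite order also occurred. Trpc6, a cation channel on the dentate list, had 647, 411 and 261 scaled fragments, Lum 822, 635 and 324, Rspo2 151, 99.8 and 59.3, and Asb15 244, 115 and 73.1. Slc7a11, the cystine importer, had 339, 129 and 141 scaled fragments, high in culture 3 alone. Phgdh (197, 112 and 97.5) and Psat1 (301, 205 and 136), both enzymes of serine synthesis, also spanned 2-fold with culture 3 highest; they were picked after their values were seen. Gfap and Aqp4 were highest in culture 3 as well, and the part of cell makeup in these differences was not tested.

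**Figure D5:**
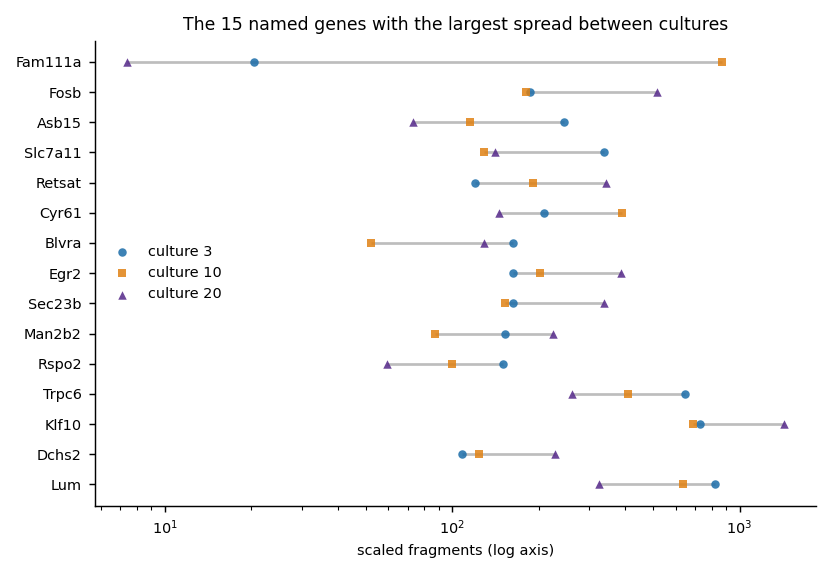
Scaled fragments (log axis) in each control library for the 15 named genes with the largest CV among those with a mean of 100 or more; grey lines join the lowest and highest library. Fam111a runs from 7.42 to 871, and the other 14 span 2.06 to 3.34-fold.

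At the other end, the 10 steadiest genes with a mean of 1000 or more scaled fragments had CVs of 0.0480% to 0.280%. Isca1, an iron-sulfur cluster protein, had 4483, 4480 and 4478, and the ganglioside enzyme St3gal5 2564, 2569 and 2567. Gabarap, an adaptor in autophagy and receptor traffic, had 3322, 3328 and 3320, and Rhoa, a regulator of actin, 4292, 4315 and 4299. Such small spreads lie under the counting error at these levels, so the order among the steadiest genes carries no information.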

How the data were processed

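Only the 3 control polyA libraries were used; 3 picrotoxin columns and the small RNA files were left out. Per the submitters' processing notes, which give no roles, the tools were Cuffdiff, Cuffnorm, bedtools 2.22.1, Cufflinks 2.2.1 and STAR 2.3.1z12. The aligner settings and genome build are not stated there. As deposited, each library has 1 signal value per gene; these values behave as fragments over a size factor: 99.9% of values under 200 were whole multiples (tolerance 0.02) of 1 step per library. FPKM values are the group value of the authors' comparison table, made from the 3 libraries together. UTR lengths are the authors', in bases, for the control arm with replicates pooled. Negative lengths and names with several entries were left out, and lengths of 0 were kept.

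FPKM per library is the group value times the library's scaled fragments over their mean. Expressed means FPKM 1 or more; spread was computed at a mean of 100 or more scaled fragments. An implied length, in bases, is the transcript length at which the scaled fragments and library totals give the authors' FPKM. No test was run, since all values describe 1 group. The counting of steps, spans and scaling factors was tested on simulated data.

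Gene lists (21 of markers, 66 families, 9 functions; 775 entries, 34 unmatched) and the promoters were chosen with earlier results of these data known, and lists share members. For 39 entries with several gene identifiers, the identifier with most fragments was used. Named genes were the 30 highest by FPKM, the 15 highest by fragments, each marker list's 3 defining and 2 highest members, each family's leader, next and lowest detected member, each function list's 3 highest and its lowest, and the 15 largest and 10 smallest CVs; other named genes were chosen after their values were seen. Some genes that this rule names are not reported here; counts and sums include them. Symbols printed in capitals in the table are written in rat style. Python 3.11.15, pandas 2.3.3 and NumPy 2.4.6 were used.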

Additional observations from a re-analysis of the deposited data

How the results depend on the processing

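No paired analysis was possible because the results come from no test. Summing all identifiers of a symbol moved no list sum by more than 1 SD between libraries. Under median-ratio, total and TMM scaling the mean list sums could hardly move, because each gene's mean is tied to the authors' group FPKM. Those sums therefore do not test the scaling. The 33 genes spanning 2-fold, which scaling can change, were 31, 29 and 31 under these 3 scalings. The number of genes at FPKM 1 or more kept within 1.5 times under every threshold tried. The share of the first 10 genes, 8.80% by FPKM, was 2.64% by fragments, 3.15% over genes with a symbol and 3.12% over implied lengths of 100 bases or more (the last chosen after seeing the data). The share of the first 100, 20.7%, was then 13.8%, 15.7% and 15.5%. Without its highest member, a list summed to 4708 FPKM (neurons in general), 792.7 (excitatory), 80.1 (dentate), 201.03 (CA1 and CA3), 509.2 (inhibitory), 578.5 (inhibitory subtypes), 19.6 (Cajal-Retzius), 57.7 (progenitors), 729.4 (young neurons), 873.1 (astrocytes), 5.60 (oligodendrocyte precursors), 13.03 (myelinating), 1.28 (microglia), 0.918 (endothelium), 2.996 (pericytes), 32.98 (fibroblasts), 4.195 (ependyma), 13.2 (other regions), 432.1 (forebrain factors) and 0.526 (outside the brain). The 33 genes spanning 2-fold became 82 at a mean of 50 or more and 7 at 500 or more. Leaving out a library gave 7 (without culture 20) to 22 (without culture 10), and 13 without culture 3. Leaders changed without 1 culture in 3 families: Ldhb replaced Ldha without culture 3 or 10, Slc2a8 replaced Slc2a6 without culture 3, and Grik5 replaced Grik2 without culture 10. Depth limits genes of few fragments: 202 genes at FPKM 1 or more had a mean under 10 scaled fragments.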
